A study of Arabidopsis thaliana with 6 samples.

Results

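The genes described here are 9 Arabidopsis thaliana loci of the cold response: CBF1 (AT4G25490), CBF2 (AT4G25470), CBF3 (AT4G25480), COR15A (AT2G42540), COR15B (AT2G42530), KIN1 (AT5G15960), COR47 (AT1G20440), COR78 (AT5G52310) and GOLS3 (AT1G09350). They were taken by locus number out of 33602 loci in the table of gene counts. The series measured RNA by sequencing to ask how a brief light signal at night alters transcripts and their splicing. In the light pulse group, Col seedlings were given white light for 2 h, beginning 18 h after lights-on (ZT18), and were harvested at ZT20. In the dark control group, seedlings of the same ecotype and age stayed in darkness and were harvested at the same time. Both groups had 3 libraries, and both had grown for 9 days at 22 °C with 12 h of light at 50 µmol m-2 s-1 and 12 h of darkness, with no mutation or transgene named. The source is labelled as a pool of tissues taken from seedlings, without naming the organs. In such bulk samples fewer cells of a type and less RNA per cell cannot be told apart. Seeds of both groups had been kept at 4 °C in darkness for 4 days (stratification) before growth, and no later cold exposure is named.

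The CBF proteins, also called DREB1, are transcription factors of the AP2/ERF family. Cold induces them within minutes to hours, and they bind the C-repeat element in the promoters of COR (cold-regulated) genes, whose products protect membranes and proteins against freezing and dehydration. Light, the circadian clock and abscisic acid, a stress hormone, also act on this set, and several COR genes respond to abscisic acid through elements other than the C-repeat.

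Gene counts summed to between 8695843 and 12261645 in the light libraries and between 11124907 and 12689543 in the dark libraries. Ribosomal RNA loci took 0.799% to 4.4% of the light totals and 1.13% to 4.77% of the dark totals. Across genes, libraries of one group correlated at 0.989 to 0.991 (log CPM, where CPM are counts scaled to the TMM-adjusted library size) and libraries of different groups at 0.925 to 0.939. ELIP1, an early light-induced protein of chloroplasts and a check of the pulse, averaged 83.2 CPM in light and 0.507 CPM in dark libraries. Root markers (5 genes) summed to 184 to 200 CPM in light and 210 to 223 CPM in dark libraries. Leaf markers (6 genes) summed to 200 to 217 CPM in light and 210 to 211 CPM in dark libraries, and the part of tissue makeup in the results was not tested. Of the root markers 3 were called higher and 2 lower, and of the leaf markers 1 higher and 3 lower (adjusted p under 0.05, edgeR). Among all genes tested 28.9% were called higher and 27.4% lower. The root sums did not overlap between groups, the leaf sums did, and so few markers cannot decide on tissue makeup.

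Transcripts of 5 cold-regulated effector genes were higher in the light libraries, COR15A by 32.1-fold and COR15B by 35.8-fold, while the 3 CBF genes together stayed at 5 to 15 counts in any library. All 5 genes that could be tested were called higher in light and 0 lower, in edgeR's quasi-likelihood test at an adjusted p under 0.05 over 20151 genes. The background is high: of all genes tested 56.3% were called, 28.9% higher in light and 27.4% lower. Larger changes were less common. Of all genes tested, 6.07% were called and at least 2-fold higher and 1.49% called and at least 4-fold higher, and COR15A, COR15B, KIN1 and COR78 were among both. The 5 tested members were all higher without overlap between groups. Among all genes tested 31.8% were higher and 30.6% lower without overlap. CBF3 (higher) and CBF2 (lower) did not overlap either, but neither was tested, so those shares do not cover them. CBF1, CBF2, CBF3 and GOLS3 did not pass the filter on low counts. COR15A, COR15B, KIN1, COR47 and COR78 would have passed it on their 3 dark libraries alone, so they did not enter the test only through the group in which they were high. The median log2 fold change of the 5 was 2.74 (0.55 to 5.16), beside -0.0031 over all genes tested.

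**Figure D1:**
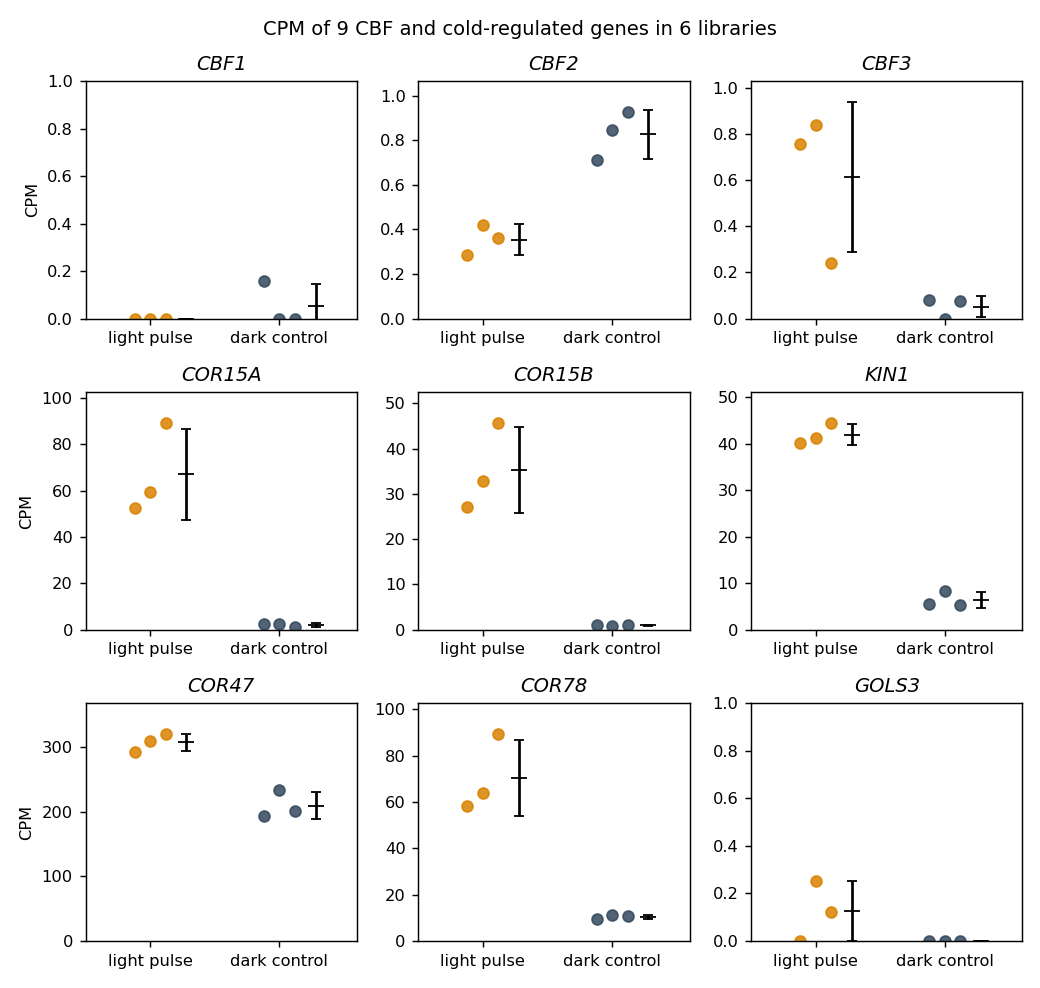
Expression of each of the 9 genes in CPM (y axis of each panel, with its own scale from 0) in the light pulse and dark control libraries. Points are libraries and bars are means ± SD of 3, with lower bars ending at 0. COR15A, COR15B, KIN1, COR47 and COR78 had every light library above every dark library, and the panels of CBF1, CBF2, CBF3 and GOLS3 stay under 1 CPM.

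The regulators come first. CBF2, CBF3 and CBF1 lie in this order on chromosome 4 (TAIR10, 13015277 to 13016220, 13018214 to 13019121 and 13021780 to 13022725), with gaps of 1993 and 2658 bp. CBF3, known as DREB1A, had 8, 10 and 2 counts in light libraries A, B and C, against 1, 0 and 1 counts in dark libraries A, B and C. In CPM it averaged 0.611 ± 0.324 in light and 0.052 ± 0.045 in dark libraries (SD, n = 3 each). The groups did not overlap, yet light library C, at 0.24 CPM, lay below the 0.36 CPM that 3 counts are worth there. Summed over libraries, 20 counts in light stood against 2 in dark, a ratio per sequenced read of 12.2 with an exact 95% interval of 2.95 to 107. Such intervals cover counting error only. An exact two-sided permutation test over the libraries gave p = 0.1, the smallest that 3 against 3 libraries allow.

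CBF2, known as DREB1C, ran the other way. It had 3, 5 and 3 counts in light libraries, against 9, 10 and 12 counts in dark libraries. Every light library lay below every dark library, with means of 0.354 ± 0.0683 CPM in light and 0.826 ± 0.11 CPM in dark libraries (SD, n = 3 each). Over all libraries 11 counts in light stood against 31 in dark, a ratio of 0.431 (exact 95% interval 0.196 to 0.882), with an exact permutation p of 0.1. When the filter was dropped, edgeR called CBF3 (log2 fold change 3.35, adjusted p = 0.00165) and did not call CBF2 (-1.19, adjusted p = 0.0598). Without dark library A, CBF2 passed the filter and was called lower (-1.29, adjusted p = 0.044). With 1 light library left out in turn its adjusted p was 0.0544 to 0.109.

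CBF1, known as DREB1B, had 0 counts in the 3 light libraries, against 2, 0 and 0 counts in the dark libraries. A count of 0 over the light group allows up to 0.0972 CPM. Both groups were thus at or under the floor of 3 counts, and CBF1 gives no fold.

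Because CBF2 was lower and CBF3 higher, the tandem's sum hardly separated the groups. The 3 genes together had 11, 15 and 5 counts in light libraries, against 12, 10 and 13 in dark libraries, or 1.04, 1.26 and 0.6 CPM against 0.946, 0.844 and 1.0 CPM. These ranges overlap. CBF3 made up 72.7%, 66.7% and 40.0% of the sum in light libraries, against 8.33%, 0% and 7.69% in dark libraries. The difference in its mean share was 54.5 percentage points (exact permutation p = 0.1, the smallest possible) and was 48.0 to 64.4 points with any 1 library left out. CBF2's share was 40.2 ± 17.4% in light and 89.1 ± 12.8% in dark libraries (SD, n = 3 each). These shares rest on 31 counts in light and 35 in dark libraries.

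**Figure D2:**
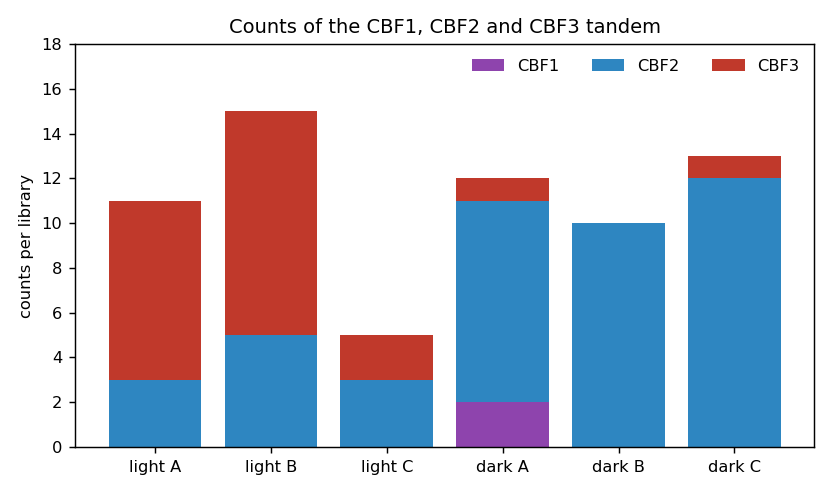
Counts of CBF1, CBF2 and CBF3 (y axis, counts per library, stacked) in light libraries A to C and dark libraries A to C. CBF3 is the larger share in light libraries A and B, CBF2 in light library C and in all 3 dark libraries, and the sums are 5 to 15 counts in light and 10 to 13 in dark libraries.

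The effector genes stood at far higher levels. COR15A, which encodes a hydrophilic protein of the chloroplast stroma that stabilises membranes during freezing, lies on chromosome 2 (17711032 to 17712330). It had 52.4, 59.4 and 89.1 CPM in light libraries, against 2.36, 2.62 and 1.23 CPM in dark libraries. Every light library was far above every dark library. COR15A rose by 5.0 ± 0.24 on the log2 scale, or 32.1-fold (95% interval 23.2 to 44.4, adjusted p = 1.2e-10, edgeR), and held rank 20 by size of rise among 20151 genes.

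COR15B, a close relative of COR15A, lies 1086 bp away on the same chromosome (17709036 to 17709945). It had 27.1, 32.9 and 45.6 CPM in light libraries, against 0.945, 0.929 and 1.0 CPM in dark libraries, with no overlap. The dark values rest on 11 to 13 counts in each library. COR15B rose 35.8-fold (25.9 to 49.6, log2 fold change 5.16 ± 0.24, adjusted p = 8.6e-11, edgeR), which was rank 15. COR15A supplied 65.9%, 64.4% and 66.2% of the pair's counts in light libraries, against 71.4%, 73.8% and 55.2% in dark libraries. The mean shares differed by -1.32 points, less than the spread of the dark libraries (SD 10.1), with an exact permutation p of 1.0. That test does not show that both copies respond alike.

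KIN1 encodes a small hydrophilic protein induced by cold and abscisic acid and lies on chromosome 5 (5209898 to 5210727). Its light libraries had 40.1, 41.2 and 44.4 CPM, against 5.51, 8.36 and 5.25 CPM in dark libraries. No values overlapped, and the light libraries were close to each other. KIN1 rose 6.59-fold (5.56 to 7.82, log2 fold change 2.72 ± 0.13, adjusted p = 8.5e-11, edgeR). The most used junction from KIN1 into its neighbour KIN2 had 783 reads in light and 170 in dark libraries. KIN1 itself had 1286 and 237 counts, so its own fold is less certain than the interval shows.

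COR78, better known as RD29A and named LTI140 in the gene reference, is a hydrophilic protein gene widely used as a reporter of cold and drought responses. It lies on chromosome 5 (21240849 to 21243613). It had 58.3, 63.7 and 89.2 CPM in light libraries, against 9.37, 11.2 and 10.7 CPM in dark libraries, and the groups were well apart. COR78 rose 6.69-fold (5.5 to 8.14, log2 fold change 2.74 ± 0.14, adjusted p = 3.7e-10, edgeR), nearly the same size as KIN1.

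COR47, a dehydrin (a protein that stays unfolded and protects others during water loss), lies on chromosome 1 (7084409 to 7085772). It was already abundant in darkness. Light libraries had 293, 309 and 320 CPM, against 194, 234 and 201 CPM in dark libraries. The groups did not overlap, but the difference was small: COR47 rose 1.47-fold (1.33 to 1.61, log2 fold change 0.55 ± 0.07, adjusted p = 7.5e-06, edgeR). Its rank by rise was 3181, at percentile 84.2 of all genes tested.

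GOLS3, on chromosome 1 (3019819 to 3021441), encodes a galactinol synthase, the enzyme of the first committed step of raffinose synthesis. It had 0, 3 and 1 counts in light libraries, against 0 in each dark library. The groups overlapped at 0, and an exact permutation test gave p = 0.4. A count of 0 over the dark group allows up to 0.08 CPM, and with 4 counts in light, a difference in GOLS3 was not detectable at this depth.

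**Figure D3:**
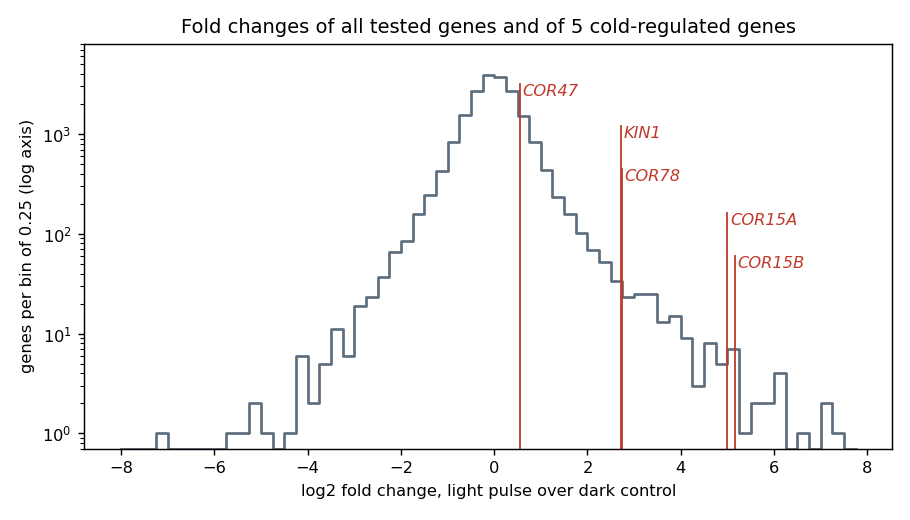
Number of genes in bins of 0.25 log2 units (y axis, log scale) by log2 fold change, light pulse over dark control (x axis), for all 20151 genes tested. Vertical lines mark COR47 at 0.55, KIN1 at 2.72, COR78 at 2.74, COR15A at 5.0 and COR15B at 5.16, the last 4 in the right tail.

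Per kilobase of exon (RPKM), COR47 had the highest level of the 9 in both groups, 252 in light and 172 in dark libraries. COR15A came next in light at 83.5 RPKM, and its libraries (65.3, 74.1 and 111) overlapped those of KIN1 (73.0, 75 and 80.9, mean 76.3). COR15B (53.9) and COR78 (28.2) followed in light. In dark libraries the order below COR47 was different, with KIN1 at 11.6, COR78 at 4.18, COR15A at 2.58 and COR15B at 1.47 RPKM. CBF3 at 0.673 RPKM in light and CBF2 at 0.875 RPKM in dark libraries were the highest CBF levels.

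KIN1, COR47 and COR78 each lie beside another gene of the cold or drought response: KIN2 and ERD10 were called higher, and RD29B was not called. KIN2, 1183 bp from KIN1 and its close copy, had 157, 187 and 186 CPM in light libraries, against 28.3, 33.8 and 25.7 CPM in dark libraries. KIN2 rose by 2.59 ± 0.09 on the log2 scale (adjusted p = 6.6e-12, edgeR), and KIN1's share of the pair's counts was 19.2 ± 1.16% in light and 17.7 ± 1.88% in dark libraries (SD, n = 3 each, exact permutation p = 0.3).

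ERD10, a dehydrin gene 2230 bp from COR47, had 157, 157 and 168 CPM in light libraries, against 48.4, 66.4 and 57.3 CPM in dark libraries. Its rise of 1.48 ± 0.09 (adjusted p = 1.5e-09, edgeR) was larger than that of COR47. COR47 accordingly supplied 65.1%, 66.3% and 65.6% of the pair's counts in light libraries, against 80.0%, 77.9% and 77.8% in dark libraries. That difference of -12.9 points left no overlap (exact permutation p = 0.1, the smallest possible) and was -13.3 to -12.2 points with any 1 library left out.

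RD29B, 1319 bp from COR78, is a gene of the abscisic acid response. It had 3.96, 4.61 and 3.48 CPM in light libraries, against 6.77, 1.69 and 7.87 CPM in dark libraries. Dark library B stood below all light libraries and dark libraries A and C above them, and RD29B was not called (log2 fold change -0.44 ± 0.36, adjusted p = 0.32, edgeR). Without dark library B it was called lower (-0.85, adjusted p = 0.00123). RAB18, a dehydrin gene strongly induced by abscisic acid, had 10.8, 10.8 and 12.5 CPM in light libraries, against 13.3, 2.7 and 2.78 CPM in dark libraries. Dark library A lay above the light libraries and dark libraries B and C below them. RAB18 was not called with all libraries (0.84 ± 0.40, adjusted p = 0.087) and was called higher without dark library A (2.03, adjusted p = 2.65e-07). It was also called without the filter on low counts (adjusted p = 0.0191).

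Within 10 kb of the 9 genes lay 41 further genes that are in none of the lists used here. Of these, 27 were tested, with 9 called higher and 10 lower, where 28.9% of all genes tested were higher and 27.4% lower. The 9 include AT5G15950 and CPuORF10, both 1861 bp from KIN1. Each had 4052 counts in light, against 1721 and 1720 in dark libraries, so the same reads appear to be counted more than once. CYP96A4, a cytochrome P450 gene 1364 bp from COR78, was picked out after its value was seen and had a log2 fold change of 2.02 ± 0.23.

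Among 17 other cold-regulated genes, 16 were tested, 12 were called higher and 0 lower, where 28.9% of all genes tested were called higher and 27.4% lower. Their median log2 fold change was 0.64, beside -0.0031 over all genes. COR413-PM1, a membrane protein gene of cold acclimation, rose by 2.19 ± 0.07, with 287 ± 16.6 CPM in light and 62.7 ± 4.23 CPM in dark libraries (SD, n = 3 each, adjusted p = 1.3e-12, edgeR). BAM3, a chloroplast beta-amylase that breaks starch down to maltose, was the most abundant of the list at 1070 ± 78.9 CPM in light and 331 ± 15.4 CPM in dark libraries and rose by 1.69 ± 0.07. FAD8, a fatty acid desaturase, rose by 1.61 ± 0.08. LEA14 rose by 1.18 ± 0.09, while LTI30 and ERD14, both dehydrins, rose by only 0.32 ± 0.09 and 0.35 ± 0.07. The call of LTI30 was lost on library totals alone (adjusted p = 0.153) and when light library B or the library richest in rRNA of each group was left out.

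GOLS3's relatives separated by gene. Of 8 genes of galactinol and raffinose synthesis besides GOLS3, 4 were tested, with GOLS1, GOLS2 and RS5 called higher and GOLS4 not called. The share called higher over all genes tested was 28.9%. GOLS4 passed the filter on low counts only through the dark libraries, where its mean was higher (2.42 CPM, against 1.61 CPM in light libraries). GOLS2 had 3.87, 5.87 and 6.0 CPM in light libraries, against 0.63, 0.169 and 0.386 CPM in dark libraries. It rose by 3.67 ± 0.35 (adjusted p = 2.8e-07, edgeR), resting on 2 to 8 counts in each dark library. Since all its dark libraries lay under the filter of 0.854 CPM, GOLS2 was tested only through the group in which it is high, and its call adds nothing to the count for these genes. RS5, a raffinose synthase, rose by 1.88 ± 0.07 with 105 ± 5.92 CPM in light and 28.7 ± 0.872 CPM in dark libraries, and GOLS1 rose by 0.93 ± 0.16.

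**Figure D4:**
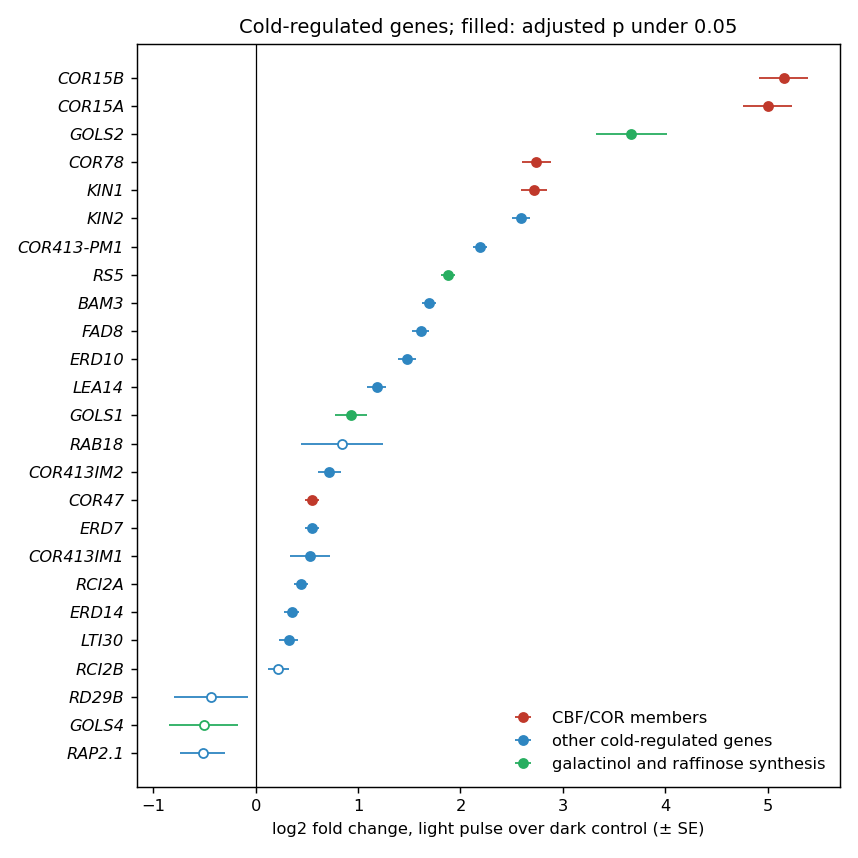
Log2 fold change ± SE (x axis, light pulse over dark control, 3 libraries each) of the 5 tested members, 16 other cold-regulated genes and 4 genes of galactinol and raffinose synthesis. Filled points passed an adjusted p of 0.05. COR15B and COR15A lie highest, COR47 at 0.55 lies among the smaller rises, and the 3 genes below 0 (RD29B, GOLS4 and RAP2.1) are open points.

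Of 26 listed regulators of CBF transcription, 25 were tested, with 7 called higher, 12 lower and a median log2 fold change of -0.17. Over all genes tested 28.9% were called higher and 27.4% lower. The higher count, 7 of 25, is thus near the background, and it includes PRR7 and PRR9, which passed the filter only through the light libraries. The lower count, 12 of 25, is above the background, in a list chosen with earlier results of these data known. ICE1, the bHLH activator of CBF3, had 59.1 ± 3.36 CPM in light and 58.8 ± 4.12 CPM in dark libraries (SD, n = 3 each, adjusted p = 0.95, edgeR). CAMTA3, a calmodulin-binding activator of CBF2, fell by 0.78 ± 0.08, and EIN3, an ethylene-signalling repressor of the CBF genes, fell by 0.74 ± 0.06. PIF4 and PIF7, light-signalling bHLH factors that repress CBF genes, rose by 3.44 ± 0.20 and 2.11 ± 0.11.

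Clock genes that act on the CBF locus moved apart. CCA1, a morning factor that activates CBF genes, rose by 1.41 ± 0.07 with 139 CPM in light and 52.1 CPM in dark libraries. LHY, its partner, had 230 CPM in light and 240 CPM in dark libraries and was not called (adjusted p = 0.47, edgeR). Of the PRR repressors, PRR7 rose by 4.75 ± 0.18 and PRR9 by 2.36 ± 0.32, while PRR5 fell by 1.20 ± 0.12. PRR7 and PRR9 each had only 2 dark libraries over the filter, so both were tested only through the light libraries, where they are high. RVE4, which activates DREB1 genes in the cold, had 79.5, 72.5 and 76.3 CPM in light libraries, against 253, 249 and 218 CPM in dark libraries. RVE4 fell by 1.66 ± 0.07 (adjusted p = 3e-11), and TOC1, the evening clock repressor, fell by 1.28 ± 0.07. RVE8, of the same list as RVE4, was called higher (0.23 ± 0.07, adjusted p = 0.014, edgeR), although its libraries overlapped between groups.

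Of 6 further DREB genes 2 were tested: DREB2B, a factor of the drought and heat response, fell by 1.62 ± 0.26 but passed the filter only through the dark libraries, where it is high, and DREB2A was not called (0.31 ± 0.17, adjusted p = 0.13, edgeR). Of 12 transcription factors that cold induces in parallel with the CBF genes, 3 were called higher and 3 lower, with a median of -0.14. That is close to the shares over all genes tested (28.9% higher and 27.4% lower) and is no result about this group. RAV1 fell by 2.23 ± 0.14 and MYB73 by 1.53 ± 0.10, while CRF3 rose by 1.16 ± 0.27 and CRF2 by 0.48 ± 0.09. Of 7 kinases of cold signalling, 2 were called higher and 2 lower, with a median of 0.06, again near the shares over all genes. MPK6 fell by 0.79 ± 0.07 and MPK3 by 0.51 ± 0.08, and MPK4 rose by 0.30 ± 0.06, a call lost on library totals alone (adjusted p = 0.0542). CRLK1, a calcium-regulated receptor-like kinase, rose by 0.50 ± 0.13, a call lost without the library richest in rRNA of each group (adjusted p = 0.0883).

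The genes nearest to the members' profile over the 6 libraries were found by Euclidean distance between centred log2 CPM values. For the mean profile of the 6 members other than CBF these were FMO GS-OX3 (AT1G62560, distance 0.183), AT3G17110 (0.225), MYB102 (0.262), P5CS1 (0.296) and KIN2 (0.348). P5CS1, the rate-limiting enzyme of proline synthesis, had 413 CPM in light and 63.8 CPM in dark libraries, a log2 fold change of 2.69 ± 0.08. FMO GS-OX3, an enzyme of glucosinolate modification, had a log2 fold change of 2.89 ± 0.13. AT3G17110 and MYB102 passed the filter only through the light libraries. For the mean of the 3 CBF genes the nearest were AT3G44940 (0.0564), AT4G23950 (0.0706), FUT11 (0.105), AT2G24970 (0.112) and AT1G32860 (0.114). That CBF profile rests on 0 to 12 counts for each gene and library, and its nearest genes had small fold changes of 0.25 to 0.38 on the log2 scale. The mean combines CBF2, lower in light, with CBF3, higher in light, and so follows neither gene.

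Among the exon, intron and junction parts tested, no change was detected in how the members' transcripts were put together. The parts belong to COR15A, COR15B, KIN1, COR47, COR78 and GOLS3, with none listed for CBF1, CBF2 or CBF3, and no part of GOLS3 was tested. Of 21 exon parts, 16 were tested for a change relative to their gene. Here edgeR called 0 (0 at an unadjusted p under 0.05), against a background of 0.112% of all exon parts tested. Of 11 junctions 10 were tested and 0 called (1 at an unadjusted p under 0.05, smallest adjusted p 0.67), against 0.169% overall. That 1 junction joins COR15B to COR15A (17709702 to 17711799). Junctions that join KIN1 to KIN2 or COR47 to ERD10 were not among these 11. Of 12 introns, 1 was tested and not called, in COR15A (-0.30 ± 0.25, adjusted p = 0.712), against 5.94% overall. That intron starts at the same base as a shorter part also listed as an exon, with the same count in every library. The COR47 intron had 10, 6 and 5 counts in light libraries, against 7, 6 and 10 in dark libraries, while the gene itself had 2669 to 3681 counts in light and 2464 to 2769 counts in dark libraries. For COR15A the first exon part held 25 ± 3.98% of the gene's counts in light and 34.5 ± 2.85% in dark libraries (SD, n = 3 each), with 27 counts behind the dark value, and it was not called (adjusted p = 1).

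Junction reads also joined neighbouring relatives. In the COR15B and COR15A pair, 60, 65 and 102 junction reads of the light libraries ran from one gene into the other, against 2, 0 and 1 in dark libraries. They were 25.5%, 19.4% and 26.4% of the pair's junction reads in light libraries, against 40%, 0% and 11.1% in dark libraries, where the total was only 20. In the KIN1 and KIN2 pair the share was 18.2%, 19.2% and 17.7% in light, against 14.6%, 18.6% and 18% in dark libraries. In the COR47 and ERD10 pair it was 14.5%, 12.6% and 14.4% in light, against 15.8%, 16.1% and 12.7% in dark libraries. The KIN and COR47 shares overlapped between groups.

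These junctions use matching places in both copies. Of 7 junctions between relatives, 4 start at an annotated donor of the first gene and end at an annotated acceptor of the second. The other 3 join the interior of an exon to the interior of its counterpart: the starts lie 25, 26 and 33 bases past the nearest upstream acceptor of the first gene, and the ends 26, 27 and 34 bases past the nearest upstream acceptor of the second. The most used, on chromosome 5 at 5210249 to 5212211, had 239, 304 and 240 reads in light libraries, against 47, 73 and 50 in dark libraries. It starts inside the second exon of KIN1, which itself had 373, 421 and 331 counts in light, against 63, 95 and 61 in dark libraries. The whole KIN1 gene had 425, 491 and 370 counts in light, against 70, 99 and 68 in dark libraries. Set against KIN1's own counts, this junction thus weighs far more than among the pair's junction reads, most of which lie within KIN2. Whether reads that join relatives are joined transcripts or reads placed partly on the wrong copy was not tested. The split of counts between COR15A and COR15B, KIN1 and KIN2, and COR47 and ERD10 is therefore uncertain. For KIN1, the smaller gene of its pair by counts, the uncertainty is larger than the pair's share of joining reads shows. The tables held no junction between CBF genes or between COR78 and RD29B.

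**Figure D5:**
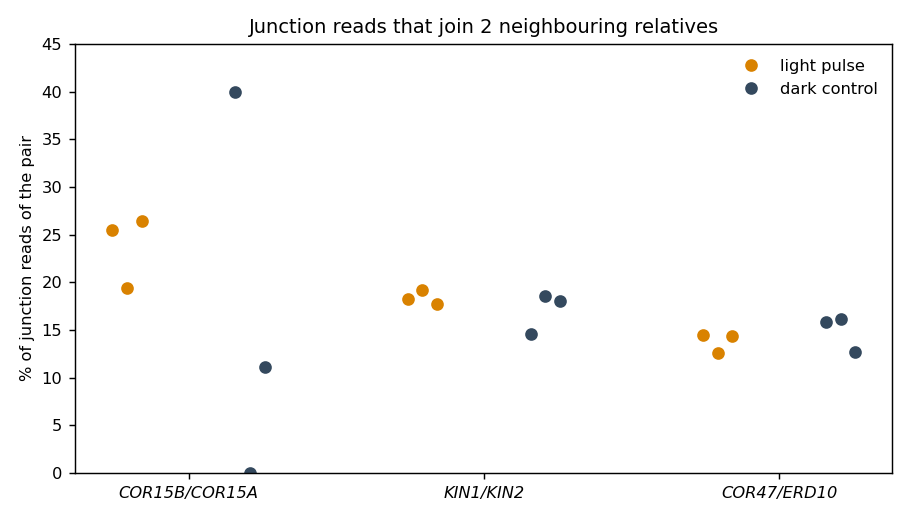
Share of a pair's junction reads that join both genes of the pair (y axis, %), by pair, with light pulse libraries to the left of dark control libraries and 1 point for each library. Light libraries lie at 12.6% to 26.4%, and the dark COR15 points, at 0% to 40%, rest on 20 junction reads in all.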

How the data were processed

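RNA of 6 libraries, 3 for each group, was analysed. The authors deposited whole-number counts of reads for genes, exon parts, introns and junctions, and TopHat2 2.0.9, TAIR10 and R 3.1 were used, per the submitters' processing notes. Which program counted reads, and how it treated strand and reads matching several places, is not given in the sources used here. In the deposited counts, 2 copies of a plastid rRNA gene differ by at most 1 in every library. Column letters A to C could be matched to a group but not to a replicate number. Separate cultures are not stated for the libraries of a group, and the spread behind each p-value may therefore be technical. No pair looked like 1 library deposited again (chi-square per degree of freedom at least 2.69).

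Genes were filtered with filterByExpr and scaled by TMM, and all 20151 that passed were fitted with edgeR 4.0.16 (quasi-likelihood F test, Benjamini-Hochberg adjusted p under 0.05, in R 4.3.3), without a replicate block. The other 13451 loci were not tested. CPM use TMM-scaled library sizes and RPKM the deposited exon length. Usage of a part was tested in the same model with log(gene count + 0.5) as offset. Log2 fold changes carry SEs, and profiles used a prior count of 2. Single values were tested by exact two-sided permutation. DESeq2 1.42.0, other scaling, no filter, a block and libraries left out were the alternatives. Code was tested on simulated data.

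The members and lists were chosen with earlier results of these data known. Named were the members, up to 4 called genes of each list by adjusted p, the 5 nearest genes of each profile and ELIP1. ERD10, ERD14, LEA14, LTI30, RAB18, RD29B, ICE1, CAMTA3, EIN3, PIF4, PIF7, LHY, RVE8, PRR5, PRR9 and DREB2A were named after their values were seen. So were GOLS4, RAP2.1 and CYP96A4.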

Additional observations from a re-analysis of the deposited data

Results flagged for a closer look

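A junction that joins COR15B to COR15A (chromosome 2, 17709702 to 17711799) had 121 reads over the 3 light libraries (36, 29 and 56) and 0 over the dark libraries. Both genes were low in darkness, with 77 counts of COR15A and 36 of COR15B over the dark libraries. The comparisons of gene level do not use the junction table. Relative to the COR15A gene count in the same library, edgeR gave this junction an unadjusted p of 0.00678 and an adjusted p of 0.67, and it was not called.

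A junction that joins KIN1 to KIN2 (chromosome 5, 5210432 to 5212401) had 37 reads in light and 0 in dark libraries. All 37 lay in light library B, so the other light libraries also had 0.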

How the results depend on the processing

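Under 13 alternatives COR15A (log2 fold change 4.72 to 5.2), COR15B (4.95 to 5.34), COR78 (2.55 to 2.86), KIN1 (2.58 to 2.96) and COR47 (0.41 to 0.64, largest adjusted p 0.000192) were called higher in each. The number of members called higher was 5, or 6 without the filter, where CBF3 was added. The number called lower was 0, and 0 to 1 with a library left out, the 1 being CBF2 without dark library A. Scaling by library totals alone moved the median of all genes by -0.15 and gave 4182 genes higher and 7397 lower, against 5826 and 5527 with TMM. ICE1, not called in any fit, turned to -0.14 on library totals, to -0.01 without the library richest in rRNA of each group, and was -0.05 to 0.05 with 1 library left out. COR15A's share of its pair differed by -7.14 to 2.18 points with 1 library left out, with 0.989 without dark library A and 2.18 without dark library B. In the lists of other cold-regulated genes and of galactinol and raffinose synthesis, the number called lower was 0 to 1. The usage tests called 0 parts of members in every alternative run. With the replicate block by column letter, 5941 genes were called higher and 5654 lower, and RAB18 was called (0.96, adjusted p = 0.0167). Correlations of deviations between same-letter libraries were -0.067, 0.12 and -0.0405, so the letters were not taken to pair the libraries. The only positive values were light A with dark C (0.129), light B with dark B (0.12) and light C with dark A (0.0961). Whether these libraries share a batch was not tested, and the block by letter does not follow this pattern. Depth limits CBF1, CBF2, CBF3 and GOLS3, where 3 counts are worth 0.232 to 0.36 CPM in a library.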
